A study of Mus musculus with 20 samples.

Results

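Transcripts of 9 genes that respond to bone morphogenetic protein (BMP) signals were followed in mouse gut mesenchyme with and without *Eed*, which encodes a core subunit of the Polycomb repressive complex PRC2. The genes are *Id1*, *Id2*, *Id3*, *Id4*, *Smad6*, *Smad7*, *Msx1*, *Msx2* and *Bambi*, chosen by name out of the 43280 genes in the count tables. Embryonic RNA came from embryos at E13.5 whose strain is labelled C57BL/6, as GFP+ cells sorted from the stomach or the intestine. Control embryos carried Bapx1-cre;Rosa26mTmG and *Eed* KO embryos carried Eedfl/fl;Bapx1-cre;Rosa26mTmG, with 2 libraries for each organ and genotype. The Bapx1 promoter drives Cre in gut mesoderm, and the Rosa26mTmG reporter turns from membrane Tomato to membrane GFP in cells with Cre activity and in their descendants, so both genotypes carried Cre and reporter. The study describes the floxed *Eed* line and the reporter line as of mixed background, so the genotypes may differ in background too, which cannot be told apart from the loss of *Eed*. Adult RNA came from GFP+ stromal cells of the small intestine of mice aged about 10 weeks with *Pdgfrβ*-CreERT2 and Rosa26mTmG, after removal of the villi, with 2 libraries labelled WT and 2 labelled EED-KO. In the latter mice both *Eed* alleles were floxed, and tamoxifen activates this Cre. The assay for transposase-accessible chromatin (ATAC-seq) covered the embryonic organs, with 2 libraries pooled into 1 list of peaks for each of 4 conditions.

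BMP ligands bind serine/threonine kinase receptors, which phosphorylate SMAD1, SMAD5 and SMAD9, and these proteins enter the nucleus with SMAD4. Genes that they activate include the *Id* genes, whose products bind E proteins of the basic helix-loop-helix family and keep them from DNA. They also include the inhibitory *Smad6* and *Smad7*, the decoy receptor *Bambi* and the homeobox genes *Msx1* and *Msx2*. In the gut, BMP ligands made by the mesenchyme oppose the proliferation of crypt epithelium and pattern the smooth muscle and the pylorus. Apart from this response, *Msx1* and *Msx2* belong to the developmental transcription factor genes on which PRC2 places repressive histone H3 lysine 27 methylation in many tissues.

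Gene counts ranged from 30236159 to 39606157 per embryonic library and from 11404712 to 15903642 per adult library. Levels in CPM are counts after scaling for library size. By counting error alone, a gene without a count may have had up to 3 counts. Over the gene counts before scaling, that is 0.0992 CPM in the smallest embryonic and 0.263 CPM in the smallest adult library. The levels given here are scaled further (TMM), so on their scale the bound differs somewhat by library. *Eed* had 40.1 and 41.5 CPM in the control stomach, 11.4 and 7.41 CPM in the *Eed* KO stomach, 38.1 and 40.2 CPM in the control intestine and 10.7 and 8.59 CPM in the *Eed* KO intestine. *Eed* thus fell in both embryonic organs, with log2 fold changes of -2.11 in the stomach (adjusted p = 0.00175, edgeR) and -2.02 in the intestine (adjusted p = 0.00464, edgeR). In the adult libraries it had 29.7 and 33.4 CPM under the label WT and 25.7 and 25.1 CPM under the label EED-KO, a log2 fold change of -0.32 that did not pass the test (SE 0.21, adjusted p = 0.317, edgeR). The counts cover the whole gene, including exons that a deletion may leave, so the adult libraries are called here by their labels. Mesenchymal markers had summed levels of 6002 to 11110 TPM (counts per gene length, scaled to a fixed total) in the embryonic libraries. In the adult libraries they had 21240 and 24000 TPM under the label WT and 9904 and 9127 TPM under the label EED-KO. On this scale adult *Eed* had 34.85 and 38.1 TPM under the label WT and 21.21 and 18.58 TPM under the label EED-KO. Embryonic leukocyte markers were low, with *Ptprc* at 0 in 6 of 8 libraries, whereas adult libraries labelled EED-KO held many leukocyte transcripts, given below with *Id2*.

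The genes lie on separate chromosomes or far apart on the same chromosome. In GRCm38/mm10 and GENCODE vM4, *Msx1* is on chr5:37820485-37824583 (minus strand), *Msx2* on chr13:53466884-53473074 (minus), *Id2* on chr12:25093801-25096092 (minus) and *Smad6* on chr9:63953076-64022059 (minus). *Id1* is on chr2:152736251-152737410 (plus), *Id3* on chr4:136143497-136145755 (plus) and *Id4* on chr13:48261427-48264036 (plus). *Id4* overlaps *A330033J07Rik* on the opposite strand, and in the unstranded adult libraries reads of these genes cannot be told apart. No other of the 9 gene models overlaps another gene.

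The promoters of 4 genes are shown because they carry the contrast of the results: *Msx1* and *Msx2* rose on *Eed* loss in both embryonic organs, *Id2* rose in the adult libraries labelled EED-KO, and *Smad6* passed the test in no comparison. Each sequence gives the 250 bases before the GENCODE vM4 start in GRCm38, 5′ to 3′ on the strand of the gene, at chr5:37824584-37824833 for *Msx1*, chr13:53473075-53473324 for *Msx2*, chr12:25096093-25096342 for *Id2* and chr9:64022060-64022309 for *Smad6*, all on the minus strand. Capitals mark GGCGCC, a GC-rich site that SMAD proteins can bind, CAGAC or its complement GTCTG, a SMAD4 core box, and CAGCTG, an E-box that E proteins can bind, each searched on both strands.
Msx1: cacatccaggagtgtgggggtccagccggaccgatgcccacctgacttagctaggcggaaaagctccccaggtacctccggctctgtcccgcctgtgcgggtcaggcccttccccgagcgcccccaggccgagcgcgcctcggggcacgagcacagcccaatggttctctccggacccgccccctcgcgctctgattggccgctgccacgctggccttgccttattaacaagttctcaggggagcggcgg
Msx2: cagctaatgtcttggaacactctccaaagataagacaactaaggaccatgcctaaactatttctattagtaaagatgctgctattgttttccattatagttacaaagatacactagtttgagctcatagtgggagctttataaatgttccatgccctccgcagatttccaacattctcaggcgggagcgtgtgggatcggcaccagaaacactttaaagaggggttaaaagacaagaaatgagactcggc
Id2: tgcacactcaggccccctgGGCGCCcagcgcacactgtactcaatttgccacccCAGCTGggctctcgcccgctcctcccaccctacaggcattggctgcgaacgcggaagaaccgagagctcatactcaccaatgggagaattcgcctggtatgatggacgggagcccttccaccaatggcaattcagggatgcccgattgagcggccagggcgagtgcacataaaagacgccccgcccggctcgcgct
Smad6: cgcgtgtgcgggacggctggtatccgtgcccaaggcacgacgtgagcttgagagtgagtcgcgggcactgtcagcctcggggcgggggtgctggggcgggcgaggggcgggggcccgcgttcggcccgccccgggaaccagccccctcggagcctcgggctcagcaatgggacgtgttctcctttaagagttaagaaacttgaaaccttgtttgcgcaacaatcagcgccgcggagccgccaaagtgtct
In the *Id2* window the first run of capitals is GGCGCC and the second is CAGCTG, which do not overlap, and the other windows hold none of these letters. The CpG content relative to its expectation from base composition was 0.727 for *Msx1*, 0.462 for *Msx2*, 0.744 for *Id2* and 0.984 for *Smad6*, against a median of 0.374 over 32841 promoter windows of the same length in the RefSeq promoter table for GRCm38.p6. The RefSeq starts of *Msx1* and *Msx2* differ from the GENCODE starts used for these sequences, and that of *Msx2* is at chr13:53472780, inside the gene model. In the windows before the RefSeq starts the values were 0.704 for *Msx1* and 0.676 for *Msx2*. The RefSeq promoter table matched *Id2*, *Id3*, *Id4*, *Smad6*, *Msx1* and *Msx2*. In the 250 bases before their RefSeq starts, GGCGCC was found for *Id2* and *Id4* (2 of 6, and 9.59% of all windows), CAGAC for *Id3* (1 of 6, and 42.2% of all windows) and CAGCTG for *Id2* (1 of 6, and 13% of all windows).

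In the control embryo the *Id* genes had the highest levels of the 9 and *Msx1* and *Msx2* the lowest. *Id2* was highest in the control intestine, with 264 and 265 TPM, followed by *Id3* with 157 and 172 TPM and *Id1* with 135 and 140 TPM. These 3 genes did not overlap in the intestine, but in the control stomach *Id1* had 271 and 166 TPM and overlapped *Id2* (298 and 248 TPM) and *Id3* (208 and 164 TPM). *Id4*, *Smad6*, *Smad7* and *Bambi* followed at 14.2 to 66.3 TPM over both control organs. *Smad7* lay just above *Bambi*, with 20.6 and 19.1 TPM against 18.5 and 18.1 TPM in the stomach and 20.1 and 21.2 TPM against 14.2 and 18.2 TPM in the intestine. *Msx1* stood far below all of them, at 0.294 and 0.430 TPM in the intestine and 1.9 and 1.5 TPM in the stomach. *Msx2* was lower still, at 0 and 0.0624 TPM in the intestine and 0.215 and 0.118 TPM in the stomach.

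**Figure D1:**
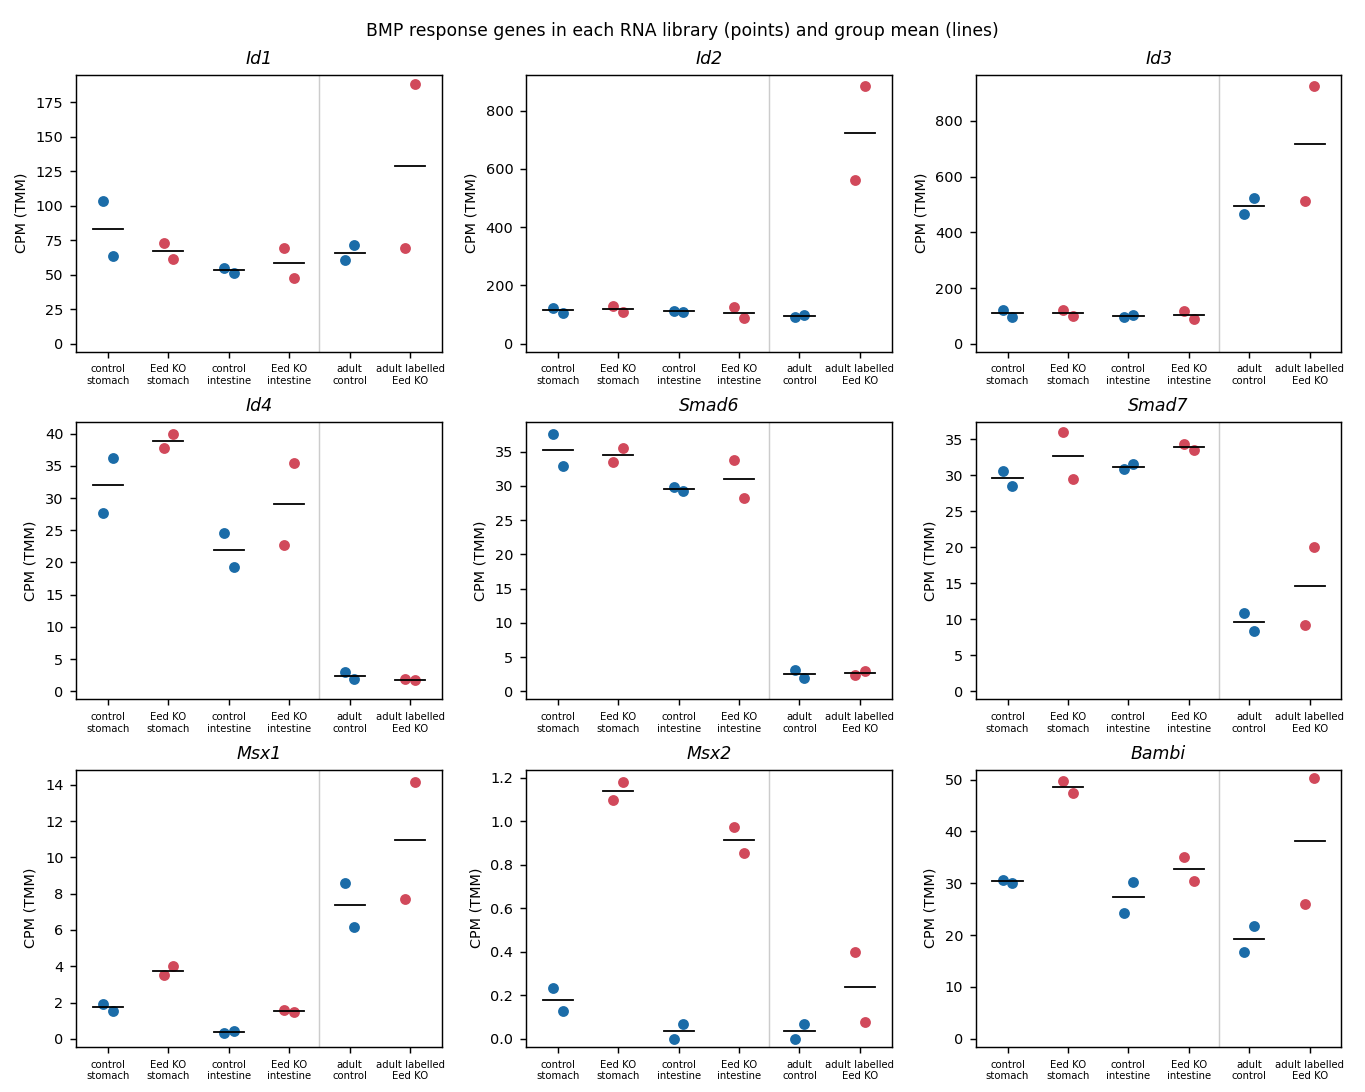
Levels of the 9 BMP response genes in the 12 RNA libraries, in CPM after TMM scaling (vertical axes from 0, a scale for each gene), with a point for each library and a line for the mean of 2. *Msx1*, *Msx2* and *Bambi* are higher in both *Eed* KO stomach libraries than in the control stomach, and *Id2* is higher in both adult libraries labelled EED-KO, at 562 and 884 CPM. Embryonic and adult libraries were made with different kits and scaled separately.

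The control organs were compared first, to ask whether the BMP response differs between stomach and intestine before any loss of *Eed*. *Msx1* had 1.94 and 1.53 CPM in the control stomach and 0.309 and 0.438 CPM in the control intestine. Both intestinal libraries were below both stomach libraries, a difference of 4.65-fold (log2 fold change -2.22, SE 0.30, adjusted p = 0.005, edgeR). It was the single one of the 9 genes to pass, lower in the intestine, where 4.43% of all 16218 genes tested were lower and 2.4% were higher. Without control intestine replicate 1 the call was lost (log2 fold change -1.96, adjusted p = 0.0578, edgeR). Summed *Msx2* counts were 13 for the stomach and 2 for the intestine (ratio 5.76, 95% counting interval 1.3 to 52.6), which did not pass (adjusted p = 0.203, edgeR).

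The other 7 genes gave log2 fold changes from -0.65 to 0.08 between the control organs. *Id1* had 55.1 and 51.3 CPM in the intestine and 103 and 63.5 CPM in the stomach, so the organs did not overlap, but stomach replicate 1 stood apart and the difference did not pass (log2 fold change -0.65, 95% interval -1.23 to -0.06, adjusted p = 0.226, edgeR). Without the filter on low counts *Id1* passed (adjusted p = 0.0472, edgeR). It also passed with a block by replicate number, although the labels do not say that the numbers mark shared animals. *Id4* had 24.6 and 19.3 CPM in the intestine and 27.7 and 36.3 CPM in the stomach (log2 fold change -0.55, 95% interval -1.09 to -0.01, adjusted p = 0.278, edgeR). *Id2* was nearest to equal, with a log2 fold change of -0.03 and a 95% interval of -0.44 to 0.39.

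Loss of *Eed* in the stomach was then compared with the control stomach. *Msx1*, *Msx2* and *Bambi* rose, 3 of 9 genes, where 5.96% of all genes tested were higher and 1.95% were lower. None of the 9 fell. *Msx1*, a homeobox repressor that keeps progenitor cells undifferentiated in several tissues, had 1.94 and 1.53 CPM in the control and 3.51 and 4.00 CPM in the *Eed* KO stomach. The groups did not overlap and the rise was 2.17-fold (log2 fold change 1.12, SE 0.24, adjusted p = 0.0339, edgeR). Its paralog *Msx2* had counts of 8 and 5 without *Eed* loss (0.232 and 0.128 CPM) and of 41 and 43 with it (1.10 and 1.18 CPM). The groups did not overlap, and the rise was 6.32-fold (log2 fold change 2.66, SE 0.51, adjusted p = 0.0226, edgeR). *Bambi*, a receptor without a kinase domain that dampens BMP and TGF-β signals and lies on chr18:3507957-3516404 (plus), had 30.7 and 30.1 CPM in the control and 49.7 and 47.4 CPM in the *Eed* KO stomach. It rose 1.6-fold with little spread within either group (log2 fold change 0.67, SE 0.13, adjusted p = 0.0222, edgeR), which is below the fold size of 1 on the log2 scale that the study used for DEGs.

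These calls were not kept with fewer stomach libraries. Leaving out any of the 4 kept the direction, with log2 fold changes of 0.95 to 1.29 for *Msx1*, 2.28 to 3.12 for *Msx2* and 0.64 to 0.71 for *Bambi*. All 3 then lost significance. Such a fit leaves 1 library in a group and has less power, so it cannot tell dependence on a library from loss of power. *Msx1* was also lost without control intestine replicate 1 or 2 (adjusted p = 0.0505 and 0.0511, edgeR), and with a spike-in factor *Msx1* and *Msx2* were lost (adjusted p = 0.188 and 0.0938 with edgeR, 0.393 and 0.177 with DESeq2).

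In the intestine the comparison of *Eed* KO with control again concerned the homeobox genes. *Msx1* and *Msx2* rose, 2 of 9 genes, where 2.66% of all genes tested were higher and 0.407% were lower. *Msx1* had 0.309 and 0.438 CPM in the control and 1.61 and 1.48 CPM in the *Eed* KO intestine. The groups did not overlap, and the rise was 4.15-fold (log2 fold change 2.05, SE 0.30, adjusted p = 0.0148, edgeR), and the *Eed* KO intestine then overlapped the control stomach (1.94 and 1.53 CPM). *Msx2* was counted 0 and 2 times in the control and 37 and 30 times in the *Eed* KO intestine. The summed counts of 67 and 2 were in a ratio of 30 (95% counting interval 7.98 to 253), and edgeR gave an adjusted p of 0.0174. *Bambi* had 24.3 and 30.2 CPM in the control and 35.0 and 30.5 CPM in the *Eed* KO intestine, a log2 fold change of 0.27 that did not pass (95% interval -0.04 to 0.57, adjusted p = 0.442, edgeR).

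One control library weighs heavily on the intestinal calls, although a fit without it leaves 1 control library and less power. Without control intestine replicate 1 both were lost (*Msx1* log2 fold change 1.81, adjusted p = 0.139, and *Msx2* 3.69, adjusted p = 0.106, edgeR), and without control intestine replicate 2 *Msx1* was lost (2.31, adjusted p = 0.0753, edgeR).

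After TMM scaling the *Id* genes and the inhibitory Smads passed the edgeR test in neither organ on *Eed* loss. Their intervals are those of that fit and do not cover the values under every other setting. In the stomach, *Id1* had 103 and 63.5 CPM in the control and 73.3 and 61.3 CPM in the *Eed* KO (log2 fold change -0.31, 95% interval -0.89 to 0.27). *Id2* had 124 and 104 CPM in the control and 129 and 110 CPM in the *Eed* KO (0.06, interval -0.36 to 0.48), and *Id3* had 123 and 97.0 CPM and 121 and 99.6 CPM (0.00, interval -0.40 to 0.41). With DESeq2 and a spike-in factor *Id2* passed in the stomach (0.64, adjusted p = 0.0474), and with that factor in edgeR *Id1* and *Id4* changed sign there (0.31 and -0.34) without passing. Replicate 1 was the higher library in all of these groups, and the genotypes overlapped for each of the 3 genes.

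*Smad6*, which competes for SMAD1 and its receptors, had 37.5 and 32.9 CPM in the control stomach and 33.5 and 35.5 CPM in the *Eed* KO (log2 fold change -0.03, 95% interval -0.31 to 0.26). *Smad7*, on chr18:75367529-75395935 (plus), recruits ubiquitin ligases to BMP and TGF-β receptors and had 30.6 and 28.5 CPM and 36.0 and 29.4 CPM (0.15, interval -0.13 to 0.42). Both overlapped between the genotypes. *Id4* did not overlap, with 27.7 and 36.3 CPM in the control and 37.8 and 39.9 CPM in the *Eed* KO stomach, but did not pass (0.28, interval -0.26 to 0.81, adjusted p = 0.521, edgeR).

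In the intestine the 6 genes gave log2 fold changes from -0.08 for *Id2* to 0.41 for *Id4*. The widest interval was that of *Id1*, -0.45 to 0.72, and the narrowest that of *Smad7*, -0.16 to 0.40. *Id4* had 24.6 and 19.3 CPM in the control and 22.7 and 35.4 CPM in the *Eed* KO intestine, so that replicate 2 of the *Eed* KO stood apart (0.41, interval -0.13 to 0.95). *Smad7* had 30.9 and 31.6 CPM in the control and 34.3 and 33.6 CPM in the *Eed* KO intestine, without overlap but by a small step that did not pass (adjusted p = 0.815, edgeR). In libraries scaled by their spike-in totals, in place of TMM, the median of all genes moved by 2.39 (stomach) and 1.85 (intestine) on the log2 scale, and all 9 genes rose with it. Relative to that median *Msx1* was at 1.16 and 2.02, and *Id2* at 0.03 and -0.20.

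**Figure D2:**
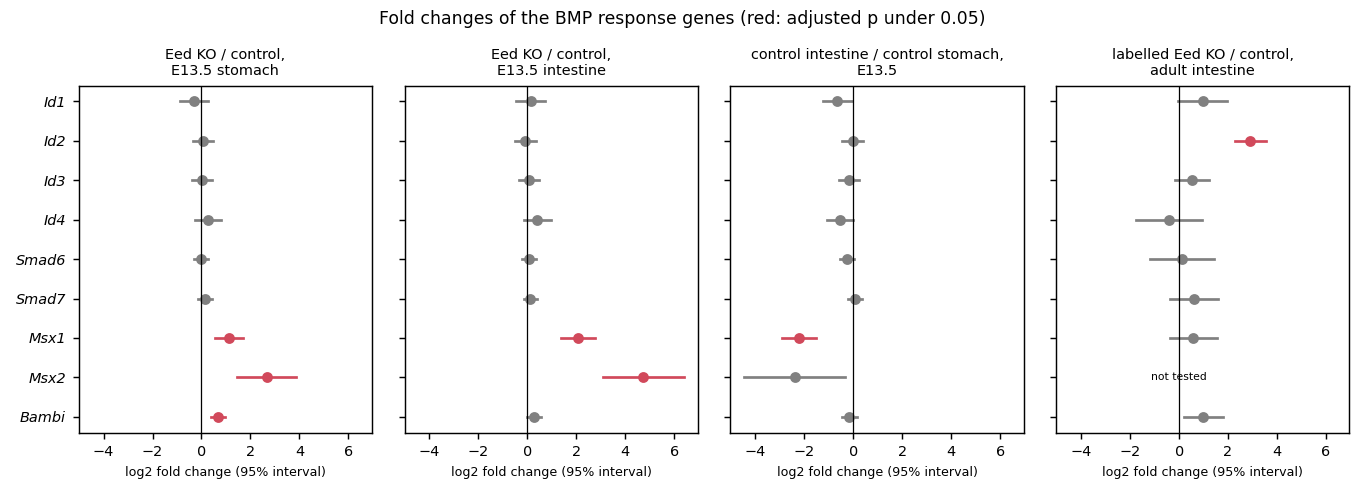
Log2 fold changes of the 9 genes with 95% intervals from edgeR after TMM scaling (horizontal axis), for *Eed* KO against control in the E13.5 stomach and intestine, for the control intestine against the control stomach, and for the adult libraries by label. Red marks an adjusted p under 0.05. *Msx1* and *Msx2* lie above 0 on *Eed* loss in both embryonic organs, and *Id2* lies at 2.91 in the adult. The intervals of the *Id* genes and of *Smad6* and *Smad7* on embryonic *Eed* loss include 0. Scaling by spike-in totals puts all 9 genes above 0 there, and the median of all genes too.

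The *Eed* KO organs were compared with each other to see which differences between stomach and intestine remained. *Msx1* had 3.51 and 4.00 CPM in the *Eed* KO stomach and 1.61 and 1.48 CPM in the *Eed* KO intestine, 2.43-fold lower in the intestine without overlap (log2 fold change -1.28, SE 0.25, adjusted p = 0.0249, edgeR). *Bambi* was also lower in the *Eed* KO intestine, 35.0 and 30.5 CPM against 49.7 and 47.4 CPM (log2 fold change -0.57, SE 0.13, adjusted p = 0.0461, edgeR). These were 2 of 9 genes lower, where 4.01% of all genes tested were lower and 2.32% were higher. *Msx2* had 0.976 and 0.856 CPM in the *Eed* KO intestine and 1.10 and 1.18 CPM in the stomach, with summed counts 1.24 times as high in the stomach (counting interval 0.889 to 1.74). Leaving out any of the 4 *Eed* KO libraries ended both calls (adjusted p from 0.0802 to 0.149 for *Msx1* and from 0.0629 to 0.173 for *Bambi*, edgeR), and *Bambi* was also lost without control stomach replicate 1 or 2 (adjusted p = 0.0936 and 0.101, edgeR).

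A difference between the organs in the response to *Eed* loss was tested by the interaction, the change in the stomach minus the change in the intestine. None of the 9 genes passed an adjusted p of 0.2 with edgeR, where 0.302% of all genes were higher and 0.21% were lower, and none passed with DESeq2. At an unadjusted p under 0.05 there was 1 gene, *Msx1*, with a log2 difference of -0.94 (95% interval -1.84 to -0.04, adjusted p = 0.814, edgeR). *Bambi* had a difference of 0.41 (interval -0.02 to 0.83) and *Msx2* of -2.08 (interval -4.41 to 0.24). The rise of *Bambi* in the stomach was therefore not shown to differ from its change in the intestine.

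Endothelial transcripts moved with the *Eed* KO groups and are given beside these results. The summed level of 12 endothelial markers was 17.0 and 15.6 TPM in the control stomach, 29.3 and 47.1 TPM in the *Eed* KO stomach, 17.2 and 20.5 TPM in the control intestine and 54.7 and 54.5 TPM in the *Eed* KO intestine. Of the 12, none fell on *Eed* loss. In the stomach 8 rose, where 5.96% of all genes tested were higher, and in the intestine 7, where 2.66% were higher. Between the control organs 4 of the 12 were higher and 1 was lower in the intestine, where 2.4% and 4.43% of all genes tested were. *Sox17* was at 0 in both control intestine libraries, and *Cldn5* and *Sox17* were at 0 in control stomach replicate 2. Endothelial cells are known to express *Id1*, *Id3* and *Smad6*, none of which passed the edgeR test on *Eed* loss after TMM scaling. In the control stomach *Id1*, *Id3* and *Smad6* had means of 218.4, 186.3 and 33.4 TPM. In the control intestine the means were 137.3, 164.5 and 27.7 TPM. All of these lie above the summed endothelial markers of the same organ, but that sum does not measure the endothelial part of the RNA of another gene. The part of endothelial RNA in these levels, and in the rise of *Msx1*, *Msx2* and *Bambi*, was not tested. In sorted bulk RNA more cells of a type and more RNA per cell cannot be told apart.

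The machinery upstream of the 9 genes is to be read against all genes tested, of which 5.96% rose and 1.95% fell in the stomach and 2.66% rose and 0.407% fell in the intestine. In the stomach 1 of 10 ligands tested, 2 of 14 antagonists and 2 of 11 receptors and coreceptors fell, and 1 antagonist rose. Of 14 BMP ligands 10 were tested, and on *Eed* loss *Bmp6* fell in the stomach (log2 fold change -1.13, adjusted p = 0.0124, edgeR) and none passed in the intestine. Of 15 antagonists 14 were tested. *Chrdl1*, a chordin-like protein that binds BMP ligands, fell in both organs (-1.26, adjusted p = 0.00437 in the stomach and -0.91, adjusted p = 0.0291 in the intestine, edgeR). The activin and BMP binding protein *Fst* fell in the stomach (-1.75, adjusted p = 0.0168, edgeR), and *Sostdc1*, an antagonist of BMP and Wnt signals, rose there (1.02, adjusted p = 0.0373, edgeR).

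Of 11 receptors and coreceptors, *Rgmb*, a glycolipid-anchored BMP coreceptor, fell in both organs (-1.11, adjusted p = 0.000926 in the stomach and -0.62, adjusted p = 0.0165 in the intestine, edgeR). The type I receptor *Bmpr1b* fell in the stomach (-0.77, adjusted p = 0.0187, edgeR). In the controls *Bmpr1b* was also lower in the intestine than in the stomach (-4.08, adjusted p = 5.04e-05, edgeR). None of the 9 SMADs, ligases and corepressors, and none of the 3 E proteins that Id proteins bind, passed in either organ.

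Of 9 other genes that BMP signals are known to induce, none fell. In the stomach 4 rose, where 5.96% of all genes tested were higher, and in the intestine 3, where 2.66% were higher. The list was chosen with earlier results of these data known, and the part of BMP signals in these rises was not tested. *Gata2*, a zinc finger factor of blood, endothelial and mesenchymal progenitors, rose in both (3.00, adjusted p = 0.00195 in the stomach and 3.36, adjusted p = 0.00984 in the intestine, edgeR). The T-box genes *Tbx3* and *Tbx2* rose in the stomach (1.80, adjusted p = 0.00866 and 1.58, adjusted p = 0.0105, edgeR), and *Hey1*, a target of Notch and BMP signals, rose in the intestine (0.88, adjusted p = 0.0351, edgeR). The list had median log2 fold changes of 0.92 (stomach) and 0.88 (intestine), against 0.15 and 0.14 for the 9 BMP response genes and 0.00 and 0.01 for all genes.

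Chromatin at the promoters was open in every condition, including where the transcript was nearly absent. All 9 genes had a peak within 1000 bp of the start in all 4 peak lists, as had 86.9% of 16216 tested genes. Peaks were called on pooled replicates, so no test between conditions was possible. Fold enrichment over the MACS2 background ranged from 3.61 to 7.87. *Bambi* had the highest values, 7.40 to 7.87, and was the one gene of the 9 above the median of all promoter peaks in each list (6.46 to 6.91).

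The peak at *Msx2* had a fold enrichment of 4.71 for the control stomach and 5.07 for the control intestine, although RNA counts of the gene summed to 13 and 2 there, and of 4.91 and 5.41 in the *Eed* KO organs. Its width went from 756 to 852 bp in the stomach and from 733 to 818 bp in the intestine on *Eed* loss. These ratios of *Eed* KO to control, 1.04 and 1.07, were at the percentiles 71.8 and 86.4 of all promoters with a peak in both lists. *Msx1* went the other way, with 5.02 in the control stomach and 3.96 in the *Eed* KO stomach, and 5.06 and 4.16 in the intestine, while its transcript rose. The ratios of 0.789 and 0.821 were at the percentiles 3.11 and 11.2, and in the stomach the peak was wider, 1777 bp against 1429 bp. Around the start of *Msx1* the number of peaks within 50000 bp was 9 in the control stomach, 15 in the *Eed* KO stomach, 6 in the control intestine and 12 in the *Eed* KO intestine. The lists held 115789, 116842, 103808 and 119181 peaks in the same order.

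Among genes whose transcripts did not pass, *Id3* had the largest ratios of *Eed* KO to control, 1.19 in the stomach (4.35 to 5.17) and 1.28 in the intestine (3.77 to 4.81), at the percentiles 94.4 and 98.5. *Smad6* went from 3.61 to 4.56 in the intestine but from 4.82 to 4.23 in the stomach. Its peak was 3034 bp wide in the control intestine and 1442 bp in the *Eed* KO intestine, so these enrichments refer to stretches of unequal length.

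**Figure D3:**
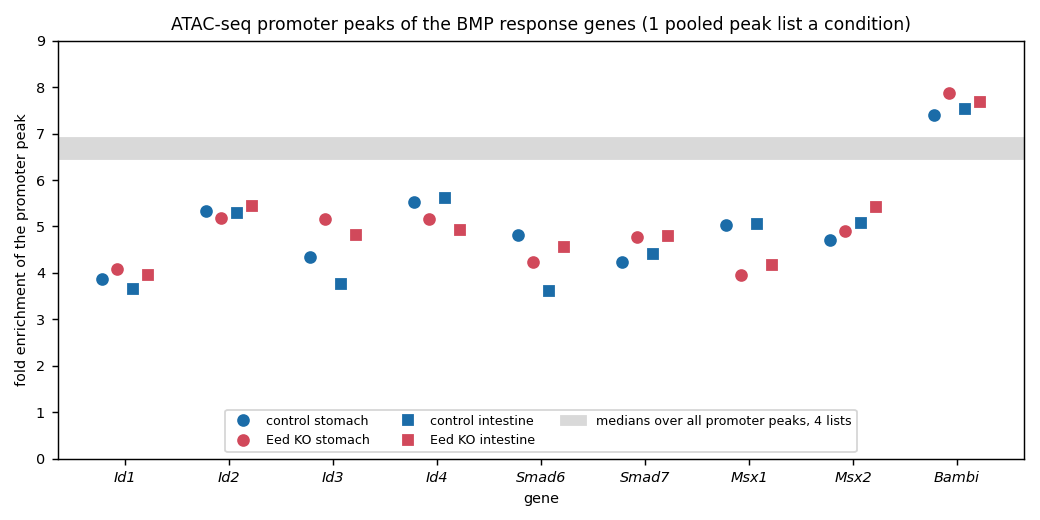
Fold enrichment over the MACS2 background (vertical axis) of the strongest peak within 1000 bp of the start of each gene, with circles for the stomach and squares for the intestine, blue for control and red for *Eed* KO, and 1 pooled value for each. The grey band spans the medians of all promoter peaks in the 4 lists, 6.46 to 6.91. *Bambi* lies above the band, and *Msx1* is lower in the *Eed* KO than in the control of both organs.

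The genes whose pattern over the 8 embryonic libraries was most like that of the 3 most variable members were sought among genes with a mean of at least 10 CPM, as a description of libraries that share their controls. For *Msx1* these were *Prrx1* (r = 0.985 on the log2(CPM + 1) scale), *Eya4* (0.984) and *Pnma2* (0.983), of which the first encodes a homeobox factor of limb and craniofacial mesenchyme. For *Msx2* they were *Skida1* (0.990), *A930004D18Rik* (0.989) and *Acot1* (0.987), and for *Bambi* *Acadm* (0.973), *F11r* (0.970) and *Rnase4* (0.969). Among the 9 genes, *Id1* and *Id3* (0.854), *Id1* and *Smad6* (0.882) and *Id2* and *Id3* (0.899) were among the closest 1% of genes to each other.

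In the adult intestine the question was whether the same genes respond when *Eed* is deleted in *Pdgfrβ*-expressing cells after development. *Id2* rose, 1 of 8 genes tested, where 14.1% of all 15039 genes tested were higher and 9.39% were lower. It had 92.9 and 99.3 CPM in the libraries labelled WT and 562 and 884 CPM in those labelled EED-KO. The groups were far apart, a rise of 7.52-fold (log2 fold change 2.91, SE 0.27, adjusted p = 0.000562, edgeR), and leaving out any library kept the call, with log2 fold changes from 2.54 to 3.18. In TPM the levels were 190 and 198 against 811 and 1145.

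Markers of other cells moved with *Id2*. The summed level of macrophage and leukocyte markers was 1138 and 1630 TPM under the label WT and 24740 and 21050 TPM under the label EED-KO, and 9 of 9 markers tested rose. Markers of B and antigen-presenting cells had 5834 and 7975 TPM against 153500 and 161600 TPM, with 5 of 8 higher and 1 lower. Markers of T, NK and innate lymphoid cells, a list chosen after values were seen, had 46.1 and 48.2 TPM against 173 and 160 TPM, with 3 of 7 tested higher. None of the markers of these lists was at 0 in either library labelled EED-KO, and 5 of 9 mesenchymal markers tested fell. Of 11 immediate early genes 7 rose, with summed levels of 6328 and 6873 TPM against 7026 and 7455 TPM, and of 7 smooth muscle markers 4 rose, with 2361 and 2980 TPM against 2847 and 3032 TPM. *Id2* is known to be expressed in dendritic cells, innate lymphoid cells and macrophages as well as in mesenchyme, and the part of these cells and genes in the rise of *Id2* was not tested.

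**Figure D4:**
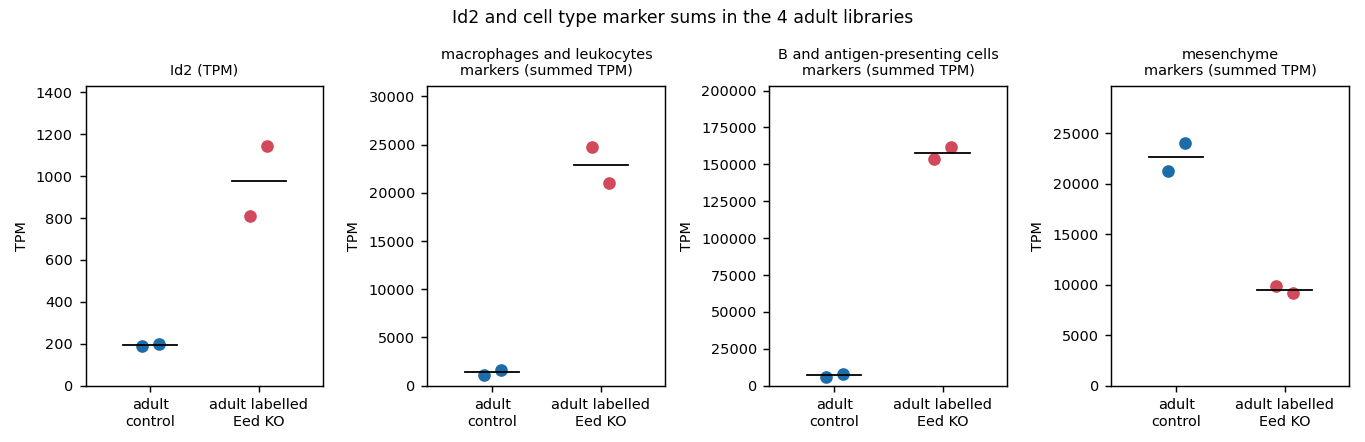
*Id2* and the summed levels of 3 lists of cell type markers in the 4 adult libraries, in TPM (vertical axes from 0), with a point for each library and a line for the mean of 2. *Id2* goes from 190 and 198 TPM to 811 and 1145 TPM, macrophage and leukocyte markers from 1138 and 1630 TPM to 24740 and 21050 TPM, and mesenchymal markers from 21240 and 24000 TPM to 9904 and 9127 TPM.

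The other *Id* genes did not pass in the adult. *Id1* had 60.5 and 71.3 CPM under the label WT and 69.1 and 188 CPM under the label EED-KO, so replicate 2 of the latter stood apart (log2 fold change 0.97, 95% interval -0.04 to 1.97, adjusted p = 0.149, edgeR). *Id3* showed the same shape, with 467 and 524 CPM against 512 and 925 CPM (0.54, interval -0.15 to 1.23), while in TPM its group means were 709 against 687. *Bambi* had 16.8 and 21.7 CPM against 26.1 and 50.3 CPM, without overlap, but in TPM its groups overlapped (8.65 and 10.9 against 9.48 and 16.4). Its log2 fold change was 0.99 (interval 0.19 to 1.79, adjusted p = 0.0783, edgeR). Without replicate 1 labelled EED-KO, all 3 passed, with log2 fold changes of 1.49 for *Id1*, 0.88 for *Id3* and 1.36 for *Bambi* (adjusted p = 0.00249, 0.0176 and 0.0113, edgeR).

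*Smad7* had 10.8 and 8.34 CPM under the label WT and 9.23 and 20.1 CPM under the label EED-KO, and *Msx1* had 8.56 and 6.17 CPM against 7.73 and 14.2 CPM, again with replicate 2 of the latter above the others (log2 fold changes 0.62 and 0.58, adjusted p = 0.322 and 0.347, edgeR). *Id4* (2.93 and 1.89 CPM against 1.91 and 1.70 CPM) and *Smad6* (3.07 and 1.89 CPM against 2.41 and 2.94 CPM) had 19 to 42 counts per library and 95% intervals of -1.77 to 0.93 and -1.19 to 1.41. The interval of *Smad6* reaches past 2-fold in both directions and that of *Id4* past a 2-fold fall. *Msx2* had 0 and 1 counts against 4 and 1 counts and was too low to test.

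Upstream of these genes, 5 of 8 BMP ligands tested fell in the adult libraries labelled EED-KO and none rose, where 9.39% of all genes tested were lower. *Bmp7*, *Bmp3* and *Bmp5* had log2 fold changes of -2.56 (adjusted p = 0.00915), -2.47 (adjusted p = 0.00956) and -2.46 (adjusted p = 0.0131, edgeR). Of 11 antagonists tested 3 fell, with *Twsg1* at -1.56 (adjusted p = 0.00332, edgeR), and of 10 receptors tested 3 fell, with *Acvr1*, a type I receptor, at -1.19 (adjusted p = 0.0402, edgeR). Among the transducers *Skil*, a SMAD corepressor, rose (2.44, adjusted p = 0.000754, edgeR) and *Smad5* fell (-0.75, adjusted p = 0.0397, edgeR). Of the E proteins *Tcf4* fell (-0.89, adjusted p = 0.0236, edgeR), and of the other BMP-induced genes *Gata3* rose (1.56, adjusted p = 0.0271) and *Tbx3* fell (-0.93, adjusted p = 0.0257, edgeR). The fall of mesenchymal markers and the rise of leukocyte markers accompany these values, and their part in them was not tested.

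Levels in the adult and embryonic control intestine are set side by side without a test, since age, Cre line and library kit differ together. *Id3* had 157 and 172 TPM in the embryo and 679 and 739 TPM in the adult, and *Msx1* had 0.294 and 0.430 TPM and 7.19 and 5.03 TPM. *Id4* had 43.6 and 35.3 TPM in the embryo and 4.59 and 2.88 TPM in the adult, *Smad6* 27.5 and 27.8 TPM and 2.5 and 1.49 TPM, and *Smad7* 20.1 and 21.2 TPM and 6.23 and 4.66 TPM. *Id1* overlapped, with 140 and 135 TPM in the embryo and 136 and 155 TPM in the adult. In the adult control *Id3* was the most abundant of the 9 genes, the place that *Id2* held in the embryonic intestine.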

How the data were processed

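Raw read counts for 43280 genes and 99 spike-in transcripts were deposited by the authors, who trimmed reads with Trimmomatic 0.32, aligned them to GRCm38/mm10 with STAR 2.5.1b and counted GENCODE vM4 genes with featureCounts, stranded poly(A) kits serving for embryonic and an unstranded low-input kit for adult libraries. For ATAC-seq, the authors pooled replicates and called broad peaks with MACS2 2.1.2. Each deposited peak has a fold enrichment, a ratio over background, and a -log10 q as given by the authors. Peak depth is unknown here.

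The 8 embryonic libraries were fitted together with 4 group means and the 4 adult libraries apart, with the quasi-likelihood test of edgeR 4.0.16 in R 4.3.3 after TMM scaling and filterByExpr, and Benjamini-Hochberg adjustment over all 16218 or 15039 genes tested. Calls needed an adjusted p under 0.05, and for the interaction under 0.2. The procedure was tested on simulated data. The biological coefficient of variation was 15.8% in the embryonic and 29.1% in the adult fit. The study calls the 2 libraries of a group biological replicates, and which embryos or mice they come from is not given. Promoter peaks lie within 1000 bp of the start, and only the strongest was used.

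Named genes are all 9 members and, from pathway lists, up to 3 called genes with the largest change at a mean of at least 1 CPM. The members and lists were chosen with earlier results of these data known. Alternatives were DESeq2 1.42.0 and its size factors, no low-count filter, a RUVg spike-in factor, spike-in scaling, the replicate block, omission of each library, and a fold-size rule. Same-numbered embryonic libraries deviated together (correlations 0.214 to 0.863), the adult ones did not (-0.126), and the labels do not say that the numbers mark shared animals.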

Additional observations from a re-analysis of the deposited data

Results flagged for a closer look

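The response of *Bmpr1b*, a BMP type I receptor, to *Eed* loss differed between the organs by the interaction test, with a log2 difference of -1.23 for the stomach against the intestine (SE 0.21, adjusted p = 0.118, edgeR, threshold 0.2). None of the 9 BMP response genes differed in this way, and groups of 2 libraries are too small for a search for outlying samples.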

How the results depend on the processing

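There were 353 fold changes of single genes under other tools, filters, blocks, a spike-in factor and scalings other than by spike-in totals. Of these 325 kept direction and call and 15 changed sign, 14 of them with the spike-in factor. Of 392 with a library left out, 324 kept both and 37 changed sign. No called value was among those that changed sign. With a spike-in factor, *Id2* between the control organs went to 0.12 (log2 fold change, edgeR and DESeq2), and with edgeR and DESeq2 in turn the *Eed* KO stomach gave 0.31 and 0.30 for *Id1*, -0.34 and -0.36 for *Id4* and 0.14 and 0.12 for *Smad6*, the *Eed* KO intestine 0.31 and 0.29 for *Id2* and -0.06 and -0.08 for *Id4*, and the interaction 0.13 for *Id3* by both. With no filter *Id3* in the stomach crossed 0 at 0.00. The sign changes with a library left out came in these ranges. Between the control organs they were -0.14 to 0.11 for *Id2*, -0.31 to 0.02 for *Id3* and -0.32 to 0.00 for *Bambi*. In the *Eed* KO stomach they were -0.62 to 0.08 for *Id1*, -0.06 to 0.19 for *Id2*, -0.16 to 0.18 for *Id3*, -0.12 to 0.07 for *Smad6* and -0.01 to 0.28 for *Smad7*. In the *Eed* KO intestine they were -0.15 to 0.38 for *Id1*, -0.37 to 0.15 for *Id2*, -0.17 to 0.24 for *Id3* and -0.07 to 0.19 for *Smad6*. Between the *Eed* KO organs they were -0.49 to 0.04 for *Id1*, -0.45 to 0.07 for *Id2*, -0.33 to 0.08 for *Id3* and -0.08 to 0.21 for *Smad7*. For the interaction they were -0.09 to 0.43 for *Id2*, -0.24 to 0.17 for *Id3*, -0.41 to 0.23 for *Id4*, -0.22 to 0.04 for *Smad6* and -0.13 to 0.16 for *Smad7*, and in the adult -0.19 to 0.49 for *Smad6* and -0.06 to 1.05 for *Smad7*. With no filter on low counts, the replicate block, a block by replicate number within each genotype, or DESeq2 with a spike-in factor, 2 of the 9 genes passed between the control organs. *Id1* was added (adjusted p = 0.0341 with the replicate block and 0.0184 with the block within each genotype, edgeR), or *Id4* in the case of DESeq2. Both blocks assume that same-numbered libraries belong together, which the labels do not say. A spike-in factor in edgeR left 1 in the *Eed* KO stomach. Scaling by spike-in totals called 9 genes in the *Eed* KO stomach, 9 in the *Eed* KO intestine and 0 between the organs of either genotype. The median of all genes moved by 2.39 and 1.85 on the log2 scale, and the share of all genes called is not given. These counts are therefore no result about the 9 genes. Spike-in counts per embryonic library were 26227 to 37590 in the controls and 4871 to 14932 in the *Eed* KO. The scaling turned *Id1* and *Smad6* in the stomach to 2.06 and 2.39 and *Id2* in the intestine to 1.65. Under this scaling 13 of 53 values changed sign, none of them called before. The other 10 did not pass under it either, with 0.29 for *Id2*, 0.15 for *Id3*, 0.06 for *Smad6* and 0.12 for *Bambi* between the control organs, -0.14 for *Smad7* between the *Eed* KO organs, 0.19 for *Id1*, 0.54 for *Id3*, 0.30 for *Id4* and 0.53 for *Smad6* in the interaction, and -0.25 for *Smad6* in the adult. In the adult comparison, whose median moved by -0.42, *Id2* stayed at 2.44. The fold-size rule left 1 gene between the *Eed* KO organs. In the adult, DESeq2 called 2 genes, no filter 3 and the replicate block 2 (*Bambi* was added, adjusted p = 0.0488, edgeR). In the main adult fit 14.1% of all genes tested were higher and 9.39% were lower, so these counts are no result about the 9 genes. The shares of all genes called under the settings above, or with a library left out, are not given. The cause of the shifts between settings was not tested. With each library left out in turn, the genes called numbered 0 to 1 between the control organs, 0 to 3 in the stomach, 0 to 2 in the intestine, 0 to 2 between the *Eed* KO organs and 1 to 4 in the adult. With the adult replicate numbers crossed, an alternative chosen after seeing the data, 1 of the 9 genes and 3477 of all genes were called. The count of promoter peaks stayed at 9 in all lists for windows of 500 and 5000 bp, a -log10 q of at least 5 and RefSeq starts. Depth limits *Msx2* throughout, and *Id4* and *Smad6* in the adult libraries.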

Other observations

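The immediate early genes *Jun* and *Egr1* were among the genes most like *Id4* over the 8 embryonic libraries, a description chosen after its values were seen. The genes most like *Id4* were *Jun* (r = 0.958), *Egr1* (0.952) and *Tob2* (0.948), of which *Tob2* is not on the list of immediate early genes. The correlations of *Id4* with the other genes of that list are not given here. The summed level of 11 immediate early genes, which rise within minutes of stress or dissociation, was 1320 and 862 TPM in the control intestine, 1131 and 1589 TPM in the *Eed* KO intestine, 1933 and 1859 TPM in the control stomach and 2347 and 2772 TPM in the *Eed* KO stomach. *Id4* was lowest in control intestine replicate 2 and highest in *Eed* KO stomach replicate 2, the libraries with the lowest and highest sums. In the control stomach the order was reversed, with *Id4* at 27.7 and 36.3 CPM where the sums were 1933 and 1859 TPM. *Id1*, *Id2* and *Id3* were not among the closest 1% of genes to *Id4*, with correlations of 0.079, -0.27 and -0.15.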
